A study of Mus musculus with 2 samples.

Results

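The neurotrophin genes and the genes of their receptors were followed in newborn mouse cerebral cortex, on 2 Affymetrix arrays. The genes were chosen by name, with earlier results of these data known. They were the ligands Bdnf, Ntf3 and Ntf5, and the Trk receptors Ntrk2 and Ntrk3. Also taken were the p75 receptor gene Ngfr and the sortilin-family receptors Sort1 and Sorcs1. Every probe set that the platform annotation gives to exactly 1 of these genes was taken, which gave 28 probe sets for 7 of the 8 genes, out of 18193 genes named on the array. The annotation used here gives no probe set to Ntf3, which was not analysed here.

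The control array read cortex labelled MRTFA-/-;MRTF-BFlox/Flox, and the other array read cortex labelled MRTF-A-/-;MRTF-BF/F;GFAP-Cre, called double knockout. By label, both pools thus lacked intact Mrtfa and had Mrtfb floxed. The Mrtfa signal went against a like Mrtfa genotype in both, at 601.6 in the library labelled control and 262.4 in the library labelled double knockout, so "control pool" and "double knockout pool" stand below for the pools so labelled, and each direction rests on those labels. Whether the Mrtfa probe set reads RNA that a null allele still makes was not tested. The name GFAP-Cre gives a GFAP promoter, active in radial glia and astrocytes, as the driver of the recombinase that cuts out floxed segments, and no group carried Cre alone. RNA of 3 animals was pooled before it went on an array, so the spread between animals cannot be seen, and no test was possible. The age was given as postnatal day 0 for both pools, but the description of the double knockout sample gave day 1.

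Neurotrophins are secreted growth factors that support the survival of neurons, the growth of axons and dendrites and the strength of synapses. They are made as longer precursors. The mature factors bind Trk receptors, which are tyrosine kinases: BDNF and NT-4, the product of Ntf5, bind TrkB, the product of Ntrk2, and NT-3, the product of Ntf3, binds mainly TrkC, the product of Ntrk3. The p75 receptor binds all neurotrophins, and together with sortilin it binds the uncleaved precursors. TrkB and TrkC also exist as truncated forms without the kinase. TrkB is the main neurotrophin receptor of cortical neurons, and its truncated form is abundant in astrocytes.

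No neurotrophin or receptor probe set above the floor differed by 1.5-fold between the pools. Of the 28 probe sets, 17 were measured, that is, at least 1 array gave a signal of 178.6 or more, a floor set at the 50th percentile of the signals. They came from 5 genes, Bdnf, Ntrk2, Ntrk3, Sort1 and Sorcs1. Differences are log2 signals of the double knockout pool less those of the control pool, and they ran from -0.40 to 0.43 over these 17 probe sets, with 9 higher and 8 lower and a median of 0.01. Of all 20244 measured probe sets naming 1 gene, 49.4% were higher. None of the 17 passed 1.5-fold, a difference of 0.58, where 1.38% of the 20244 measured probe sets naming 1 gene did. At 1.2-fold, a threshold chosen after seeing the data, 2 of the 17 passed, or 11.8%, beside 15.3% of all measured probe sets. In whole cortex, fewer cells of a type and less RNA per cell cannot be told apart.

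**Figure D1:**
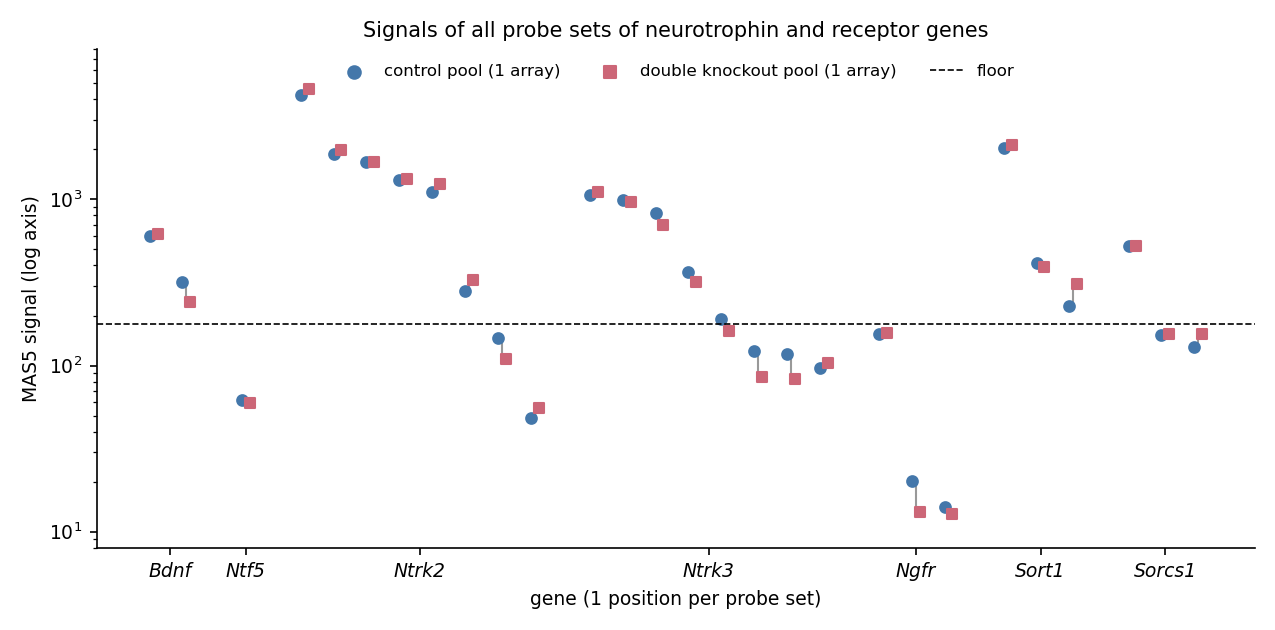
MAS5 signal on a log axis for each of the 28 probe sets, grouped by gene and ordered by the control signal, with the control array as circles, the double knockout array as squares and the floor of 178.6 as a dashed line. The 2 readings of a probe set lie close together, while the probe sets of 1 gene span a wide range, from 48.5 to 4255.4 for Ntrk2 in the control pool.

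Of the ligands, Bdnf alone was measured, and its probe sets went in different directions. Bdnf encodes brain-derived neurotrophic factor, which cortical neurons release with activity. Its brighter probe set, 1422169_a_at, read 597.6 in the control pool and 618.4 in the double knockout pool, a difference of 0.05. The dimmer one, 1422168_a_at, read 317.1 in the control pool and 241.6 in the double knockout pool, a difference of -0.40, or 1.32-fold lower. The mean was -0.18 ± 0.31 (SD, 2 probe sets), so the difference was smaller than the spread between the probe sets. With measured probe sets split by mean signal into 3 tertiles of 6748 each, 10.8% of the dimmest tertile, where the lower reading lay, differed by at least as much in either direction. Ntf5, which encodes neurotrophin-4, read 62.2 in the control pool and 59.3 in the double knockout pool on its only probe set, under the floor on both arrays, so no difference is given.

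The Bdnf values may be sums over several kinds of transcript. Where the 2 probe sets lie on the transcripts was not examined. Bdnf transcripts start at many places, each start joining its own first exon to 1 shared coding exon, and a probe set in the shared part cannot tell them apart. The RefSeq promoter windows of build GRCm38.p6, 250 bases before to 50 after an annotated start, held 7 starts for Bdnf. Members of the list had 12 such windows in all, for Bdnf, Ntf3, Ngfr, Ntrk2 and Sorcs1, and the windows for Ntf5, Ntrk3 and Sort1 were not used here. The windows were searched on both strands for TGACG, the half-site of the cAMP response element (CRE) bound by CREB, for the full element TGACGTCA, which contains the half-site, and for the CArG box bound by SRF, the partner of the MRTF proteins. The half-site was in 1 of the 12 windows, a Bdnf window, beside 20.8% of all 32851 windows. The full CRE was in 0 of the 12, beside 1.79% of all windows, and the CArG box in 0 of the 12, beside 1.63%. A match, or the lack of one, describes only the letters of these windows. The Bdnf window with the half-site, at chr2:109692186-109692485 on the plus strand, and the first Bdnf window, at chr2:109674450-109674749 on the plus strand, are shown to let the starts of 1 gene be compared, with the half-site, here on the minus strand, in capitals. Its first printed base lies 35 bases before the start.
Bdnf window with the half-site: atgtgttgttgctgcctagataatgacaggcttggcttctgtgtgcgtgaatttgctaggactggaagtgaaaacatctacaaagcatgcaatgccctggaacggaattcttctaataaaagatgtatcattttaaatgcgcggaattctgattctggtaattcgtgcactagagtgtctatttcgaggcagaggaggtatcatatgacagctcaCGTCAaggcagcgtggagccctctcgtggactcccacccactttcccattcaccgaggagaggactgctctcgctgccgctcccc
Bdnf first window: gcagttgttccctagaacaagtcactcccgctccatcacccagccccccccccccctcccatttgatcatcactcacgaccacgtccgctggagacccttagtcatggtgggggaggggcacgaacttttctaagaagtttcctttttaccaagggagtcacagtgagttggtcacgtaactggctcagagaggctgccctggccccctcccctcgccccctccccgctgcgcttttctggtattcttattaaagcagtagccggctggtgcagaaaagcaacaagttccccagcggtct

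The TrkB gene Ntrk2 was read by the most measured probe sets, and most were slightly higher in the double knockout pool. The brightest, 1458622_at, read 4255.4 in the control pool and 4589.2 in the double knockout pool, a difference of 0.11. Probe set 1435305_at read 1871.5 and 1982.1 in the same order, a difference of 0.08. On 1437560_at the signals were 1100.2 in the control pool and 1241.2 in the double knockout pool, a difference of 0.17, which is 1.13-fold. These 3 bright probe sets were higher by amounts that 38.5%, 50.3% and 18.6% of the brightest tertile of the measured probe sets equalled or exceeded in size.

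Other bright Ntrk2 probe sets differed less. Probe set 1420838_at read 1679.7 in the control pool and 1676.3 in the double knockout pool, a difference of -0.01. A similar reading came from 1435196_at, at 1311.0 and 1321.5, a difference of 0.01 that turned to -0.01 after quantile normalization and -0.02 after loess centring. The dim 1446712_at read 281.2 in the control pool and 325.3 in the double knockout pool, a difference of 0.21. Over the 6 measured probe sets, 5 were higher and 1 lower, averaging 0.09 ± 0.09 (SD, 6 probe sets), and the split was 4 and 2 after quantile normalization or loess centring. The remaining 2, 1420837_at at 146.8 and 109.1 and 1444121_at at 48.5 and 55.3, were under the floor on both arrays. The annotation used here does not say which of these probe sets read the full-length and which the truncated receptor, so the forms could not be compared.

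The TrkC gene Ntrk3 had readings in both directions. Its brightest probe set, 1433825_at, read 1054.7 in the control pool and 1107.2 in the double knockout pool, a difference of 0.07. The next, 1455917_at, read 987.9 in the control pool and 968.4 in the double knockout pool, a difference of -0.03. Lower values came from 1422329_a_at, at 827.6 in the control pool and 698.7 in the double knockout pool, a difference of -0.25. In the same direction 1425071_s_at read 367.2 in the control pool and 318.9 in the double knockout pool, a difference of -0.21, with a suffix that marks probes shared with other transcripts. The 2 brightest probe sets of Ntrk3 thus differed by 0.07 or less and the next 2 were lower, and 16.4% of probe sets in the middle tertile of signals differed by as much as 1422329_a_at.

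Another Ntrk3 probe set, 1425070_at, reached the floor in the control pool alone, with 190.3 there and 160.9 in the double knockout pool, at least 1.07-fold lower. Over the 4 probe sets measured on both arrays the mean was -0.11 ± 0.15 (SD, 4 probe sets), a difference smaller than their spread. The remaining 3 Ntrk3 probe sets stayed under the floor on both arrays, with signals of 122.2 and 85.4 for 1426003_at, 117.8 and 83.5 for 1443970_at, and 97.3 and 103.9 for 1447723_at, control first. As for Ntrk2, the receptor form behind each probe set was not given by the annotation used here. Whether Ntrk2 and Ntrk3 differed from each other in their response was not tested.

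The p75 gene Ngfr was under the floor on all 3 of its probe sets. The highest, 1454903_at, read 154.4 in the control pool and 156.4 in the double knockout pool. Those of 1421241_at were 20.2 and 13.2, and those of 1450177_at were 14.0 and 12.7, in the same order. Signals this low have no usable order, so Ngfr gives no difference between the pools.

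**Figure D2:**
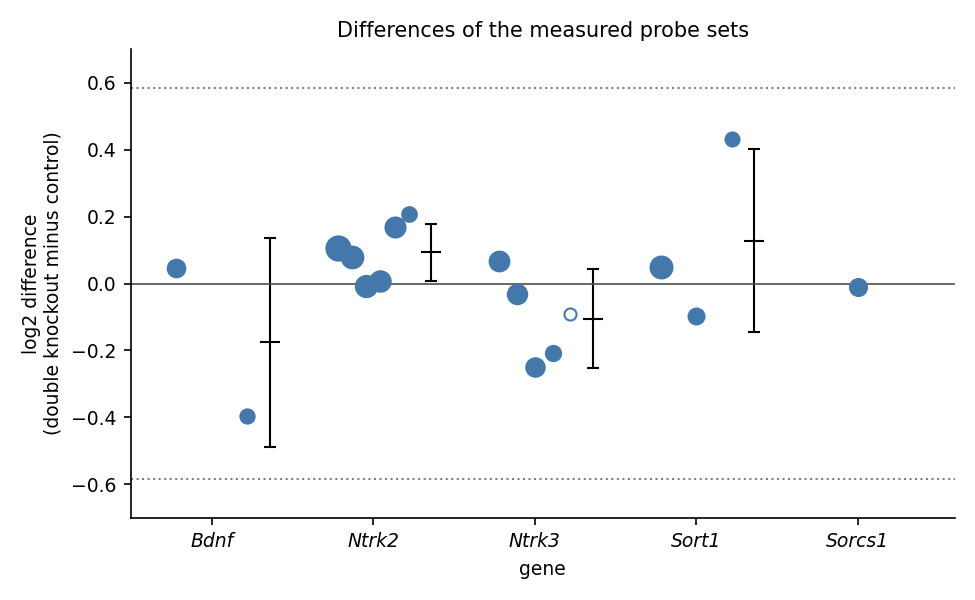
Log2 difference (double knockout minus control) of each of the 17 measured probe sets, by gene. Filled points reached the floor on both arrays and the open point on 1, larger points are brighter, bars give the mean ± SD over the probe sets measured on both arrays (genes with at least 2), and dotted lines mark 1.5-fold. All points lie inside the dotted lines, and the bars of Bdnf, Ntrk3 and Sort1 cross 0.

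Sort1 encodes sortilin, the partner of p75 for neurotrophin precursors, which also sorts the BDNF precursor inside neurons. Its brightest probe set, 1423362_at, read 2035.7 in the control pool and 2110.1 in the double knockout pool, a difference of 0.05. Probe set 1450955_s_at read 415.5 in the control pool and 389.4 in the double knockout pool, a difference of -0.10. The dimmest, 1423363_at, read 228.2 in the control pool and 308.8 in the double knockout pool, a difference of 0.43, or 1.35-fold, the largest of the 17 probe sets. The mean was 0.13 ± 0.27 (SD, 3 probe sets), and 8.17% of the dimmest tertile of probe sets differed by at least as much as 1423363_at.

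Sorcs1 encodes a sortilin relative found in neurons. It read 526.8 in the control pool and 524.9 in the double knockout pool on 1436662_at, a difference of -0.01, or 0.01 after quantile normalization. Its other probe sets were under the floor, 1421509_at at 128.5 and 155.5 and 1425864_a_at at 151.9 and 153.8, control first. The other members of the family, added as background, were brighter than the floor in both pools. Sorl1, which sorts the amyloid precursor protein, was lower on all 3 of its probe sets. The mean was -0.11 ± 0.06 (SD, 3 probe sets), and the brightest read 1872.9 and 1659.9, control first. From the brightest to the dimmest, 17.0%, 56.3% and 70.7% of probe sets in the same signal tertile differed by at least as much. Sorcs3 had a mean of -0.04 ± 0.16 (SD, 2 probe sets), and Sorcs2, a receptor that also joins p75, read 768.6 in the control pool and 732.5 in the double knockout pool, a difference of -0.07.

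The largest readings in each direction, in Sort1 and Bdnf, came from the dimmest measured probe set of each gene and from genes whose probe sets were made from 1 sequence record. The pair of Bdnf probe sets differed from each other by 0.44, although the annotation gives both the same record. Over all 3030 pairs of probe sets made from the same record, with every signal at the floor or higher, the median gap was 0.13, and 6.67% of pairs had a gap as large as that of Bdnf. The 3 Sort1 probe sets also share 1 record. Their largest gap, 0.53 between 1423363_at and 1450955_s_at, was equalled or exceeded by 3.99% of such pairs. The gaps of 1423362_at were 0.38 to 1423363_at and 0.15 to 1450955_s_at, equalled or exceeded by 9.67% and 44.3%. These pairs were not matched for signal. The SD of the differences was 0.24 in the dimmest tertile of measured probe sets, 0.20 in the middle tertile and 0.14 in the brightest. Of the 17 measured probe sets, 5 lay in the dimmest tertile, 5 in the middle and 7 in the brightest.

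**Figure D3:**
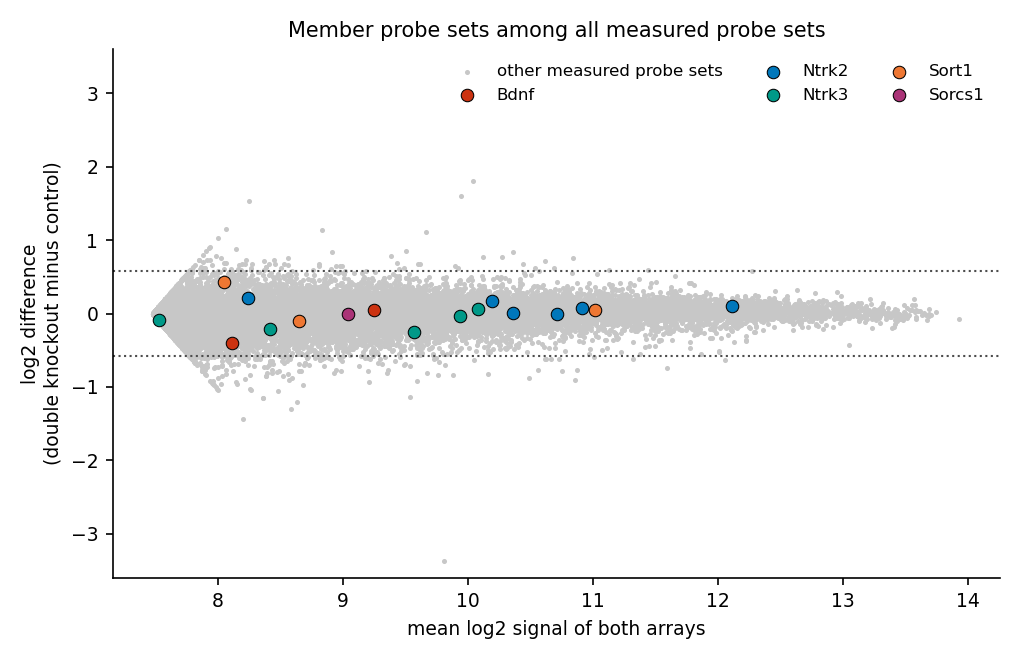
Log2 difference (double knockout minus control) against the mean log2 signal of both arrays, for the 20244 measured probe sets naming 1 gene (grey) and the 17 of Bdnf, Ntrk2, Ntrk3, Sort1 and Sorcs1 (coloured), with dotted lines at 1.5-fold. The coloured points lie within the grey cloud, which widens toward low signals.

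Taken per gene by the brightest probe set, 4 of the 5 measured genes were higher and 1 lower, at 0.11 for Ntrk2, 0.07 for Ntrk3, 0.05 for Sort1, 0.05 for Bdnf and -0.01 for Sorcs1. Their median was 0.05, beside 0.01 over all 11636 measured genes, of which 52.9% were higher. None of the 5 passed 1.5-fold, beside 1.14% of all genes. The direction was not settled for 3 of them: the mean over probe sets gave -0.18 for Bdnf and -0.10 for Ntrk3 (its 5 measured probe sets), and Sorcs1 turned with the scaling. With 1 array per pool each gene gives 1 difference, so no likeness of pattern between genes could be ranked.

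Genes that process the precursors showed small differences. Of 10 measured genes on the list 6 were higher and 4 lower (median 0.03), beside 52.9% higher among all measured genes. None passed 1.5-fold, beside 1.14% of all measured genes. Plat encodes tissue plasminogen activator, which turns plasminogen into plasmin, a protease that cleaves the BDNF precursor. Plat read 1018.2 in the control pool and 1186.7 in the double knockout pool, a difference of 0.22. Furin, a protease that cleaves precursors inside the cell, was higher by 0.14, the convertases Pcsk7 and Pcsk6 differed by 0.08 and -0.07, and each rested on 1 probe set.

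Genes of the relay inside the cell differed little, with more higher than lower under each scaling tried. Of 44 measured adaptors, kinases and trafficking genes of Trk signalling 32 were higher and 12 lower, beside 52.9% higher among all measured genes. After quantile normalization the split was 29 higher and 15 lower, and after loess centring 26 higher and 18 lower. The 52.9%, here and elsewhere, belongs to the main scaling, and no such share is given for the others. Their median was 0.06. Past 1.5-fold was 1 of the 44, beside 1.14% of all measured genes. That gene was Shc3, a neuronal adaptor of Trk receptors, chosen after its values were seen, which went from 279.5 to 176.0, under the floor in the double knockout pool and at least 1.56-fold lower. Sh2b2, an adaptor that binds receptor kinases, read 195.6 in the control pool and 274.2 in the double knockout pool, a difference of 0.48. Mapk7, the ERK5 kinase, was higher by 0.44, from 192.6 to 261.7, and Frs3, a docking protein of Trk receptors, differed by -0.37, from 372.5 to 289.4. Sh2b2, Mapk7 and Frs3 each rested on 1 probe set. Gab1, a docking protein, read 0.33 higher on the brightest of its probe sets and averaged 0.02 ± 0.28 (SD, 3 probe sets).

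Partners of p75 were split, with 9 of 17 measured genes higher and 8 lower, a median of 0.02 and none past 1.5-fold. Among all measured genes, 52.9% were higher and 1.14% passed 1.5-fold. After loess centring the median was -0.00096. Tnfrsf19, a relative of p75 that can take its place beside the Nogo receptor, read 0.24 higher on the brightest of its probe sets and averaged 0.01 ± 0.48 (SD, 3 probe sets). Mapk10, the neuronal JNK3 kinase, had a mean of 0.09 ± 0.18 (SD, 2 probe sets), and Bad, a death-promoting protein that Trk signalling holds in check, one of 0.11 ± 0.13 (SD, 2 probe sets). Rtn4r, the Nogo receptor, read 804.9 in the control pool and 705.8 in the double knockout pool, a difference of -0.19.

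Genes that respond to BDNF were lower in 17 of 26 measured cases and higher in 9. Over all measured genes 52.9% were higher. The median of the list was -0.08, beside 0.01 over all genes, and none passed 1.5-fold, beside 1.14% of all genes. Dusp4, a phosphatase that switches off MAP kinases, read 274.6 in the control pool and 203.8 in the double knockout pool, a difference of -0.43. Crh, corticotropin-releasing hormone, read 854.6 in the control pool and 671.7 in the double knockout pool, a difference of -0.35. The early gene Junb differed by -0.32 and Fos by 0.31. Arc, a synaptic early gene chosen after its values were seen, went from 245.5 to 159.1. The second value was under the floor, so Arc was at least 1.37-fold lower. The summed signal of all 26 genes was 39346.0 in the control pool and 38863.4 in the double knockout pool. Many of these genes also respond to other signals, and some are known targets of SRF. Whether SRF had a part in these values was not tested.

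Factors known to act on Bdnf, a list that holds the targeted genes, were higher in 12 of 17 cases and lower in 5, at a median of 0.05 and 1 past 1.5-fold, Mrtfa, and the split was 10 and 7 after loess centring. Over all measured genes 52.9% were higher and 1.14% passed 1.5-fold. Mrtfa, whose signals are given above, differed by -1.20 although labelled null in both pools. Mrtfb, floxed in both pools, had a mean of -0.33 ± 0.15 (SD, 2 probe sets), and Srf one of -0.28 ± 0.05 (SD, 2 probe sets). The position of these probe sets relative to the deleted parts was not given in the sources. Nfatc4, a calcium-responsive factor that acts in BDNF signalling, read 306.4 in the control pool and 218.1 in the double knockout pool, a difference of -0.49. Usf2, an E-box factor that binds a Bdnf promoter, read 0.37 higher on the brightest of its probe sets and averaged 0.14 ± 0.34 (SD, 2 probe sets).

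GDNF-family and other trophic ligands and receptors were split, 8 of 17 higher and 9 lower, at a median of -0.05 and none past 1.5-fold. The shares over all measured genes were 52.9% higher and 1.14% past 1.5-fold. The median was 0.02 after quantile normalization and 0.01 after loess centring. The GDNF-family co-receptors Gfra3 and Gfra4 differed by -0.41 and -0.36, and Gfra1 had a mean of -0.23 ± 0.10 (SD, 2 probe sets). Cntfr, the receptor of ciliary neurotrophic factor, was higher by 0.20.

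**Figure D4:**
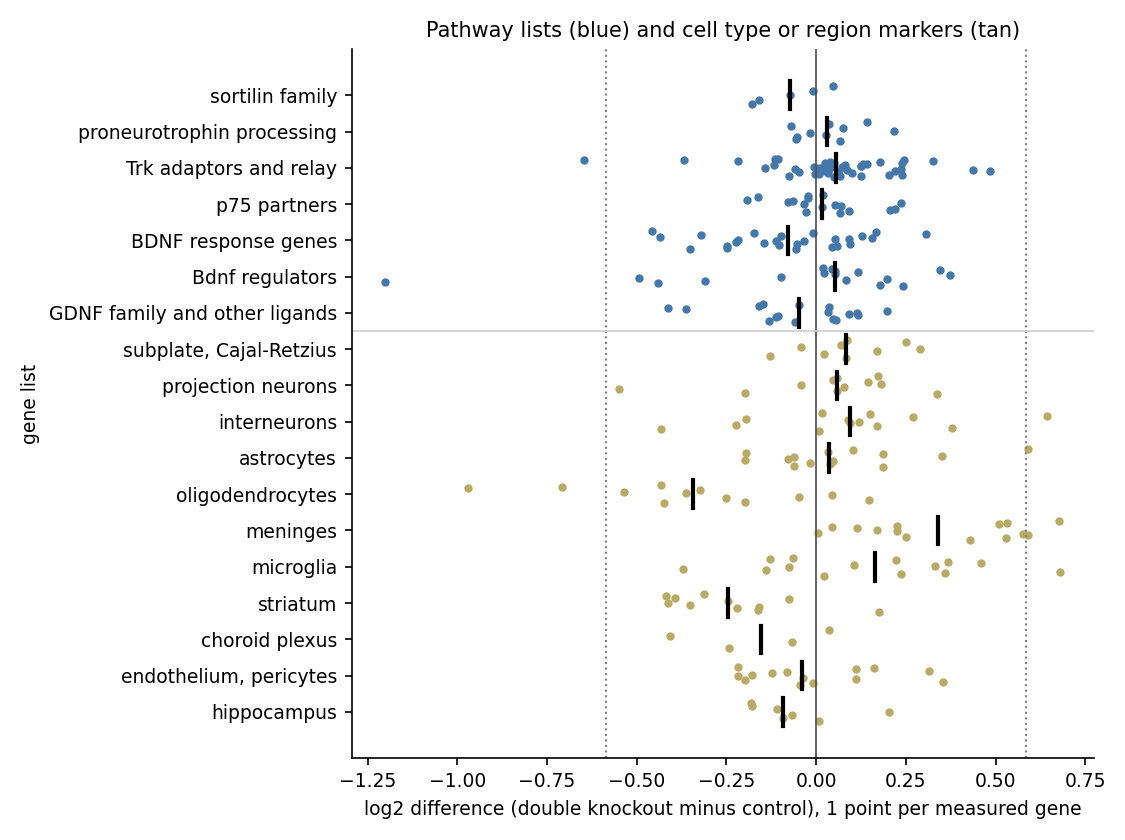
Log2 difference (double knockout minus control) of each measured gene by its brightest probe set, for 7 pathway lists (blue) and 11 lists of cell type or region markers (tan), with the median of each list as a black bar and dotted lines at 1.5-fold. The medians of the pathway lists lie between -0.08 and 0.06, and those of the oligodendrocyte and meninges markers at -0.34 and 0.34.

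The cells that carry these receptors were read by markers on the same arrays. The counts of higher markers here and below stand beside 52.9% higher over all measured genes. Genes of cortical projection neurons, which express Ntrk2 and Ntrk3, were measured for all 11 named members in both pools, with 8 higher and 3 lower at a median of 0.06. Their summed signal went from 19949.3 in the control pool to 19570.8 in the double knockout pool. Within that sum Slc17a7 alone went from 4497.8 to 3079.7, a larger fall than that of the sum. Slc17a7, the vesicular glutamate transporter, differed by -0.55 on 1 probe set, Rorb averaged 0.35 ± 0.01 (SD, 2 probe sets), Foxp2 -0.29 ± 0.25 (SD, 4 probe sets) and Bcl11b -0.06 ± 0.26 (SD, 4 probe sets), though 0.18 on the brightest. Subplate and Cajal-Retzius markers were higher in 7 of 9 cases at a median of 0.08, with Reln at 0.29, Calb2 at 0.17, Tmem163 at -0.13 and Nr4a2 averaging 0.10 ± 0.12 (SD, 4 probe sets). Interneuron markers were higher in 10 of 13 cases (8 after quantile normalization or loess centring) at a median of 0.09, with Dlx1 at 0.64, Dlx2 at 0.27, Npy at -0.22 and Maf averaging 0.14 ± 0.18 (SD, 5 probe sets). Astrocyte markers were higher in 8 of 14 cases at a median of 0.04, with a summed signal of 58877.2 in the control pool and 59279.6 in the double knockout pool. Gfap averaged 0.58 ± 0.01 (SD, 2 probe sets), Gjb6 differed by 0.35, Clu averaged -0.24 ± 0.09 (SD, 4 probe sets) and Slc1a2 -0.09 ± 0.15 (SD, 2 probe sets).

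Several lists of markers of other cells and tissue had medians farther from 0. All 14 measured meninges markers were higher, at a median of 0.34 and a summed signal of 10383.2 in the control pool and 13291.8 in the double knockout pool, with Aldh1a2 at 0.68, Igf2 at 0.59, Islr at 0.53 and Fmod averaging 0.41 ± 0.30 (SD, 3 probe sets). Oligodendrocyte markers were lower in 10 of 12 cases at a median of -0.34, with a summed signal of 25677.3 and 21657.2, control first. Mobp averaged -0.99 ± 0.15 (SD, 3 probe sets), Mag differed by -0.71, Ugt8a averaged -0.58 ± 0.06 (SD, 2 probe sets) and Mbp -0.61 ± 0.33 (SD, 7 probe sets). The 2 higher markers of that list were Pdgfra at 0.15 and Olig1 at 0.04. Striatal markers were lower in 10 of 11 cases at a median of -0.25, with a summed signal of 17313.5 and 15801.3, control first, and with Drd2 at -0.42, Six3 at -0.41, Penk at -0.39 and Gpr6 at -0.35. Microglia markers were higher in 9 of 14 cases, beside 52.9% of all measured genes, at a median of 0.16. Mrc1 differed by 0.68, C1qc by 0.46 and P2ry12 by -0.37, and C1qb averaged 0.21 ± 0.14 (SD, 3 probe sets). The 5 lower markers were P2ry12, Tmem119 at -0.14, Cx3cr1 at -0.13, Fcer1g at -0.08 and Aif1 at -0.06.

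Of 4 choroid plexus genes 1 was higher and 3 were lower at a median of -0.15, with Kcnj13 at -0.41, Clic6 at -0.24, Folr1 at -0.07 and Ttr averaging 0.01 ± 0.05 (SD, 4 probe sets). Hippocampal genes were higher in 2 of 7 cases and lower in 5 at a median of -0.09, with Nr3c2 at 0.20, Wfs1 at -0.18, Lmo2 at -0.18 and Zbtb20 averaging -0.10 ± 0.15 (SD, 9 probe sets). Endothelial and pericyte genes were higher in 5 of 14 cases and lower in 9 at a median of -0.04, with Tek at 0.31, Slco1a4 and Pecam1 both at -0.22, and Vtn averaging 0.27 ± 0.12 (SD, 2 probe sets). The part of these tissue differences in the values of Bdnf, Ntrk2, Ntrk3, Sort1 and Sorcs1 was not tested.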

How the data were processed

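The authors deposited linear intensity signals, 1 per probe set and array. MAS5 is the tool named by the submitters' processing notes, without a version or a scaling target. The 2% trimmed mean was 499.8 in the control pool and 499.9 in the double knockout pool. Per the labels' protocols, Trizol was used for extraction, and 6 ug of RNA per pool entered the biotin labelling. Of 45101 probe sets, 64 were array controls, 34945 named 1 gene, 932 several and 9160 none in the platform annotation, and Entrez identifiers of 99.4% of those naming 1 gene were found in a RefSeq table of GRCm38.p6, with 0 symbols updated.

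Signals were centred on the median log2 difference of bright probe sets (a shift of 0.0037) and raised to the floor, with statsmodels 0.14.6, pandas 2.3.3 and numpy 2.4.6 under Python 3.11.15 (plots by matplotlib 3.10.9). A gene's value came from its brightest probe set. With 1 array per pool there is no replicate, no test and no p-value, and the number of arrays limits the precision. An SD is over those probe sets of a gene that reached the floor on both arrays, not over animals, and pooled over 4858 genes it was 0.18. The computation was tested on simulated data.

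The genes and the 20 gene lists (317 entries, 291 named on the array, 262 measured) were chosen with earlier results of these data known. Named were all probe sets of the chosen genes, other sortilin-family genes, Mrtfa, Mrtfb and Srf, and from each other list the genes with the largest absolute difference, up to 4, among genes reaching the floor on both arrays. Named besides these, after their values were seen, were Shc3, Arc, the lower microglia markers and the higher oligodendrocyte markers. Lists overlap in a few genes. Alternatives were quantile normalization, loess centring (span 0.3), scaling by trimmed means, no centring, a floor moved to the 25th or to the 75th percentile, a pseudocount of the floor's size, no floor, the mean over probe sets, no cross-hybridising probe sets, and other fold thresholds.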

Additional observations from a re-analysis of the deposited data

How the results depend on the processing

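No paired analysis was possible because each group is 1 array, and no replicate could be left out. Of 388 differences and medians recomputed under alternatives, 99 were identical because the alternative did not touch them, which says nothing of stability. Of the other 289, 286 moved by less than 0.18 log2, the pooled SD between probe sets of a gene and a wide yardstick for small differences, and 3 by more. With no floor and no filter, 1 of the 28 probe sets passed 1.5-fold, beside 16.3% of all probe sets. It was 1421241_at of Ngfr, with signals of 20.2 and 13.2. With the floor kept, 2 of the 17 measured probe sets passed 1.2-fold. With the mean over probe sets, Bdnf and with it the neurotrophin list went to -0.18. Raising the floor to the 75th percentile put the choroid plexus median at 0.035, over fewer genes. Signs changed in 21 cases, 20 of them with a value within 0.1 of 0 as reported and the other the choroid plexus median. Signals under the floor, those of 11 of the 28 probe sets, limit what can be said of Ngfr and Ntf5.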
